A study of Arabidopsis thaliana with 6 samples.

Results

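The 33 genes described here encode the carbon-fixing reactions of photosynthesis in *Arabidopsis thaliana* and the salvage pathway tied to it. They were chosen by gene identifier and function, with earlier results of these data known. They comprise the 4 nuclear genes for the Rubisco small subunit (RBCS), Rubisco activase, the plastid enzymes of the Calvin cycle and the 3 CP12 genes. Photorespiratory enzymes of plastid, peroxisome and mitochondrion complete the set. The set is 33 of 32744 genes in the count tables, and all 33 passed the filter on low counts. RNA was sequenced from whole seedlings at the 1.04 stage of the Boyes growth scale, grown on media without treatment. One group is 3 libraries whose genotype label names AT4G15640 and AT3G21465 as doubly mutated, with titles that carry the name mtran1-2-2-1. The other group is 3 wild-type (WT) libraries at the same stage. The mTRAN proteins are known as factors of mitochondrial translation in plants. The sources used here do not give the alleles' positions or how many plants went into a library.

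In the Calvin cycle, Rubisco joins CO2 to a sugar bisphosphate, the product is reduced at the cost of ATP and NADPH, and a series of aldolase, phosphatase and transketolase steps rebuilds the acceptor. Rubisco also reacts with oxygen, and photorespiration recovers the resulting phosphoglycolate in a route through plastid, peroxisome and mitochondrion that releases CO2 and ammonia. The holoenzyme contains large subunits, made from the plastid gene rbcL, and small subunits, made from nuclear RBCS genes, so its supply draws on both genomes. Several cycle enzymes are switched on in light through thioredoxin, and CP12 proteins bind glyceraldehyde-3-phosphate dehydrogenase and phosphoribulokinase into an inactive complex in the dark.

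The total count was between 62235559 and 78671470 per library in the labelled double mutant and between 53193772 and 77446157 in WT. Of the counts, 46.7 to 51.3% came from nuclear genes in the labelled mutant and 41.0 to 43.3% in WT. Plastid genes took 44.1 to 49.0% in the labelled mutant and 55.2 to 57.3% in WT, and mitochondrial genes took 4.25 to 4.64% in the labelled mutant and 1.56 to 1.71% in WT. The targeted gene AT3G21465 stood at 4.72, 4.32 and 4.80 CPM (counts per 1000000 of the scaled library total) in the labelled mutant and 7.87, 8.45 and 7.46 CPM in WT. It was lower (log2 fold change -0.78 ± 0.08, SE, edgeR adjusted p = 8.95e-05), and the groups did not overlap. The targeted gene AT4G15640 stood at 12.7, 13.3 and 14.2 CPM in the labelled mutant and 11.2, 13.2 and 11.5 CPM in WT. That gene was not lower (0.16 ± 0.08, SE, edgeR adjusted p = 0.121), and it passed as higher when WT replicate 2 was left out (0.24, edgeR adjusted p = 0.0338). The label is therefore not checked by the counts of AT4G15640, and every direction given here rests on it.

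Of the 33 genes, 29 were lower in the labelled double mutant, none was higher, and 4 did not pass. The median log2 fold change of the 33 was -0.71, with a range of -2.04 to -0.08, against a median of 0.01 over the 21805 genes tested. Genes passed at a Benjamini-Hochberg adjusted p under 0.05 in edgeR's quasi-likelihood test. Over all tested genes, 26.0% passed as lower and 26.3% as higher, so 52.4% of the transcriptome was called. A mean of 30 CPM or more was reached by 32 of the 33 genes and by 3294 of all tested genes. Of those 3294, 42.6% were lower, against 29 of those 32 (87.9% of all 33). The gene below that level was CP12-3, which did not pass. The same 29 genes had all 3 labelled mutant libraries below all 3 WT libraries, a pattern seen in 29.8% of all tested genes. A fall of more than 2-fold that also passed the test was seen in 8 of the 33 and in 6.54% of all tested genes. Nothing in the labels says that the replicates came from separate cultures or plants, and the series' own design text speaks of 2 biological replicates while the titles number 3, so p-values measure the spread between these libraries only. In whole seedlings, fewer photosynthetic cells and less RNA per cell cannot be told apart.

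**Figure D1:**
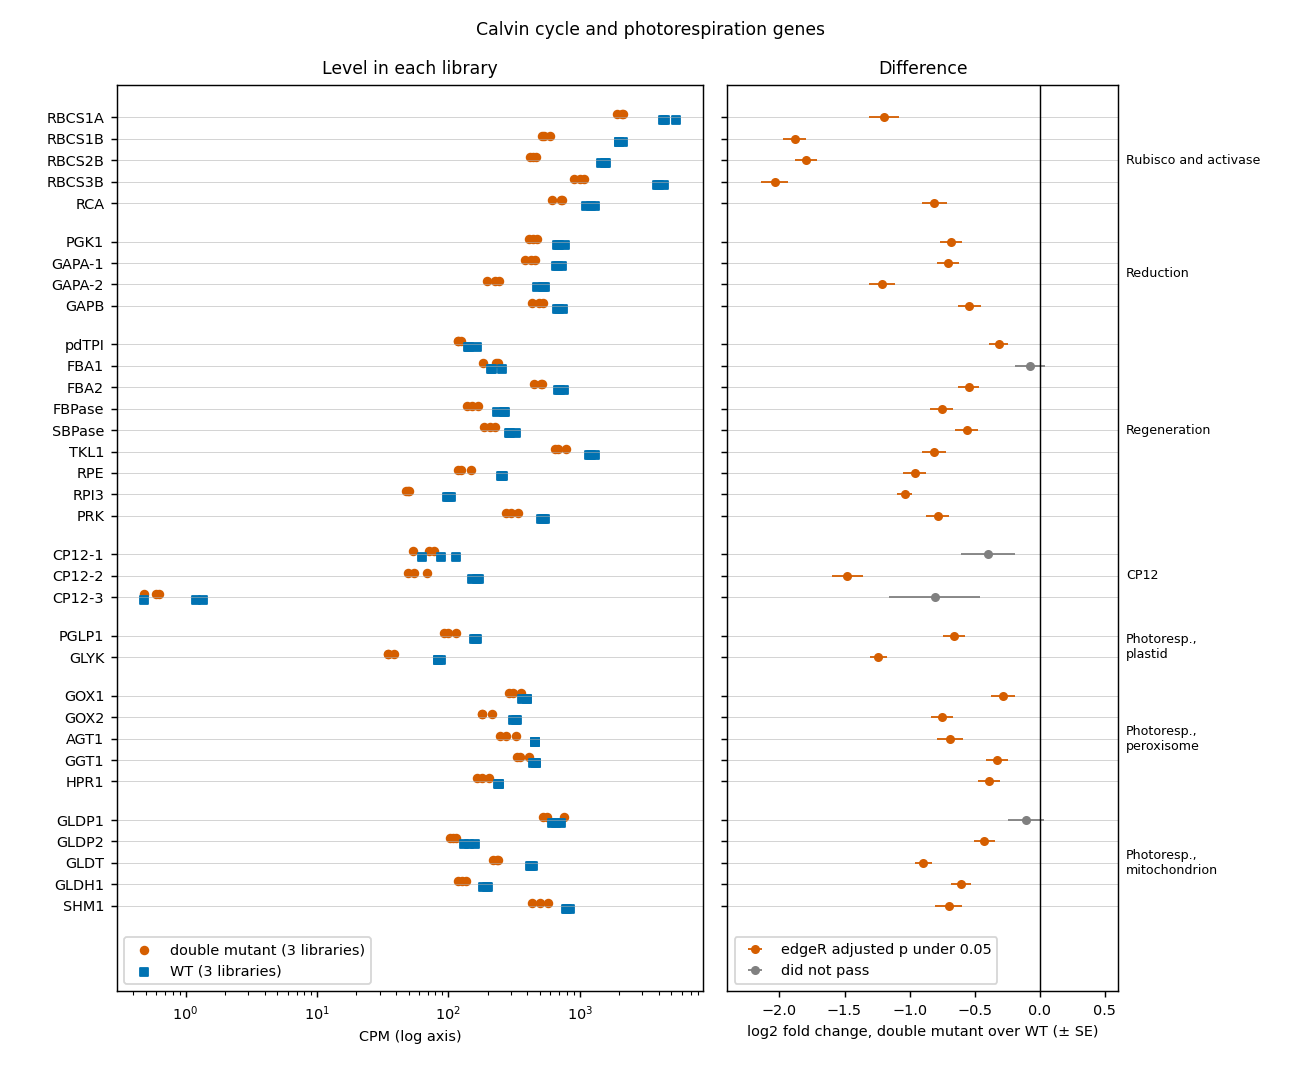
Left, level of each of the 33 genes in each library, in CPM on a log axis, with the 3 labelled double mutant libraries as circles and the 3 WT libraries as squares. Right, log2 fold change of the labelled double mutant over WT with its SE, where coloured points passed the edgeR test. The 4 grey points are FBA1, CP12-1, CP12-3 and GLDP1, and RBCS1B, RBCS2B and RBCS3B lie farthest to the left.

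As a share of all nuclear counts, the 33 genes together took 2.69 ± 0.187% in the labelled mutant and 5.20 ± 0.267% in WT (SD, n = 3 each). The 4 RBCS genes made up most of the gap, with 0.919 ± 0.0453% in the labelled mutant and 2.62 ± 0.193% in WT. The other Calvin cycle genes took 1.08 ± 0.0744% in the labelled mutant and 1.66 ± 0.0541% in WT. Photorespiration took 0.695 ± 0.0743% in the labelled mutant and 0.922 ± 0.0259% in WT. In none of these 4 sums did the groups overlap. Without the RBCS genes, 25 of the remaining 29 were lower, and the median of those 29 was -0.69.

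The RBCS genes of chromosome 5 fell furthest of the 33. RBCS1A lies alone on chromosome 1 (25048158 to 25049667, minus strand, TAIR10). RBCS3B, RBCS2B and RBCS1B follow one another on chromosome 5 between 15376988 and 15385320, all on the minus strand. Whether reads can be assigned to single RBCS genes bears on their values, so a stretch near the start of the coding sequence is shown, from coding base 20 to 79. It is the RefSeq TAIR10.1 sequence, at chr1:25049171-25049230, chr5:15385077-15385136, chr5:15381900-15381959 and chr5:15378228-15378287, 5′ to 3′ on the minus strand. Capitals mark the 16 positions at which the 4 genes are not all alike, and at 11 of these RBCS1A differs from all the others.
RBCS1A: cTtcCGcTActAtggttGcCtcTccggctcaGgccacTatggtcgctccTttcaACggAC
RBCS1B: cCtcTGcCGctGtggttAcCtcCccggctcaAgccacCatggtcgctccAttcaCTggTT
RBCS2B: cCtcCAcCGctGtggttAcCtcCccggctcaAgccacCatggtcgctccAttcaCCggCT
RBCS3B: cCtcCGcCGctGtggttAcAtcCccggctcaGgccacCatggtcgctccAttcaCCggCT

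Over the whole coding sequence RBCS1A was 90.4 to 90.6% identical to the chromosome 5 genes, while those were 96.7 to 97.3% identical to one another. No 50-base stretch within an exon of RBCS1A occurs in an exon of another gene, although its spliced coding sequence has an identical run of 67 bases with RBCS2B. For RBCS1B, RBCS2B and RBCS3B, 12.0%, 16.9% and 16.5% of such stretches are shared among them. Multi-mapping reads were counted in full for every gene they hit. The chromosome 5 genes are therefore less surely separated from each other than from RBCS1A.

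RBCS3B stood at 1088, 900 and 1011 CPM in the labelled double mutant and at 3903, 4372 and 4020 CPM in WT. The groups lay far apart, at -2.04 ± 0.10 on the log2 scale (SE, edgeR adjusted p = 1.96e-06), or 24.4% of the WT level, the lowest share of the 33 genes. RBCS1B stood at 595, 521 and 540 CPM in the labelled mutant and at 1983, 2145 and 1978 CPM in WT (-1.88 ± 0.09, SE, edgeR adjusted p = 1.32e-06). RBCS2B behaved like its neighbours on the chromosome. It had 470, 418 and 441 CPM in the labelled mutant and 1444, 1602 and 1570 CPM in WT, at -1.80 ± 0.08 on the log2 scale (SE, edgeR adjusted p = 1.39e-06). RBCS1A, the most abundant of the 4, had 2111, 1929 and 2149 CPM in the labelled mutant and 4280, 5450.3 and 4464 CPM in WT. It fell to 43.6% of the WT level (-1.20 ± 0.12, SE, edgeR adjusted p = 5.06e-05), and WT replicate 2 was the highest of the 6 libraries.

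The RBCS genes did not fall evenly. Per kilobase of exon, RBCS1A made up 51.2, 52.8 and 53.5% of RBCS transcripts in the labelled mutant and 38.6, 42.0 and 38.7% in WT. The log2 ratio of RBCS1A to the summed chromosome 5 genes was 0.74 higher in the labelled mutant, where the ratio averaged 1.11, against 0.66 in WT. No library of one group reached the range of the other. With 3 libraries against 3, the two-sided exact permutation test cannot go below p = 0.1, and this ratio gave p = 0.1 (0.107 after Benjamini-Hochberg adjustment over 15 pairs).

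The plastid partner gene rbcL (54958 to 56397 on the plus strand of the plastid genome) stood at 96664, 79369 and 89246 CPM in the labelled mutant and at 136524, 152664 and 142062 CPM in WT. All labelled mutant libraries were below all WT libraries (-0.70 ± 0.16, SE, edgeR adjusted p = 0.00561). Set against plastid counts alone, rbcL took 20.5, 21.3 and 22.3% in the labelled mutant and 22.5, 24.6 and 21.9% in WT, and on that scale the groups overlapped. The small subunit transcripts were lower by more than rbcL. The ratio of rbcL to summed RBCS, per kilobase, averaged 19.8 in the labelled mutant and 10.7 in WT, a log2 difference of 0.89 with no overlap between libraries (exact permutation p = 0.1, two-sided, adjusted 0.107). Libraries were depleted of ribosomal RNA rather than selected for poly(A) tails, so transcripts of both genomes were read in the same libraries.

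**Figure D2:**
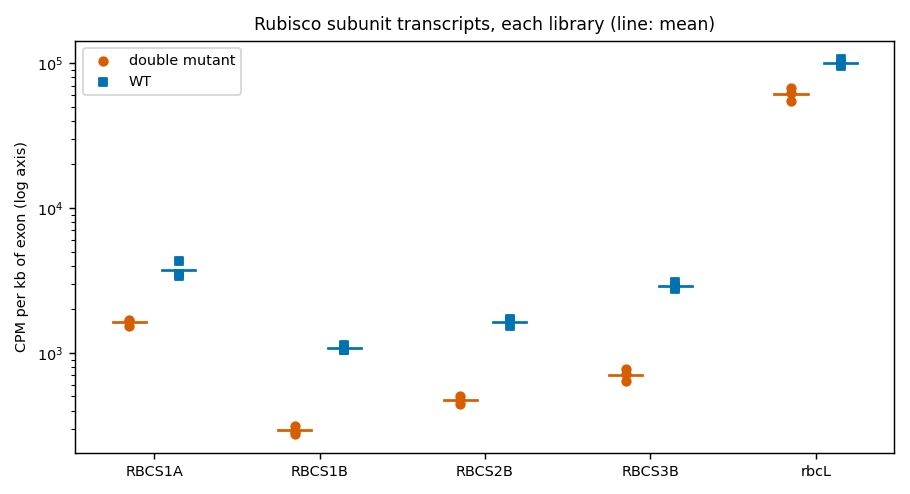
Level of the 4 RBCS genes and of the plastid gene rbcL in each library, in CPM per kilobase of exon on a log axis, with the labelled double mutant (circles) left of WT (squares) and lines at the means of 3 libraries. The gap between the groups is wider for RBCS1B, RBCS2B and RBCS3B than for RBCS1A and rbcL.

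Rubisco activase (RCA, AT2G39730) strips inhibitory sugar phosphates from Rubisco's active site. It stood at 732, 614 and 727 CPM in the labelled mutant and at 1124, 1213 and 1304 CPM in WT. The groups were separate, at -0.81 ± 0.10 on the log2 scale (SE, edgeR adjusted p = 0.000174). All 5 genes of the Rubisco group therefore passed as lower, and their median was -1.80 on the log2 scale.

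All 4 genes of the reduction phase fell, with a median log2 fold change of -0.70. GAPA and GAPB subunits form the NADPH-dependent glyceraldehyde-3-phosphate dehydrogenase of the plastid. GAPA-2 (AT1G12900) fell furthest, with 243, 196 and 227 CPM in the labelled mutant and 525, 545 and 473 CPM in WT (-1.21 ± 0.10, SE, edgeR adjusted p = 1.97e-05). Its paralogue GAPA-1 (AT3G26650) averaged 423 ± 34.3 CPM in the labelled mutant and 691 ± 35.1 CPM in WT (SD, n = 3 each), and fell by 0.71 on the log2 scale. The annotation places exons of AT3G26640 on the same strand over part of GAPA-1, so some GAPA-1 reads are uncertain. GAPB (AT1G42970), the subunit whose tail carries the redox switch, fell least. It had 523, 436 and 490 CPM in the labelled mutant and 699, 743 and 668 CPM in WT, without overlap (-0.54 ± 0.09, SE, edgeR adjusted p = 0.00092). Phosphoglycerate kinase PGK1 (AT3G12780), which supplies the substrate of that enzyme, fell by 0.68 on the log2 scale.

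Of the 9 genes that regenerate the CO2 acceptor, 8 fell and FBA1 did not pass, with a median log2 fold change of -0.76. Ribose-5-phosphate isomerase (RPI3, AT3G04790) fell furthest, with 49.6, 47.5 and 50.5 CPM in the labelled mutant and 101, 104 and 97.8 CPM in WT. The 6 libraries formed a low and a high cluster with little spread inside either (-1.04 ± 0.06, SE, edgeR adjusted p = 3.28e-06). Ribulose-phosphate epimerase RPE (AT5G61410) and transketolase TKL1 (AT3G60750), which act beside it in the sugar rearrangements, fell by 0.96 and by 0.81 on the log2 scale. Phosphoribulokinase (PRK, AT1G32060) makes the acceptor itself. It had 341, 276 and 299 CPM in the labelled mutant and 531, 541 and 507 CPM in WT, with no overlap (-0.79 ± 0.09, SE, edgeR adjusted p = 0.000127).

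The bisphosphatases are light-activated steps that commit carbon to regeneration. Plastid fructose-1,6-bisphosphatase (FBPase, AT3G54050) had 169, 139 and 151 CPM in the labelled mutant and 267, 272 and 237 CPM in WT (-0.76 ± 0.09, SE, edgeR adjusted p = 0.000174). Sedoheptulose-1,7-bisphosphatase (SBPase, AT3G55800) had 225, 186 and 208 CPM in the labelled mutant and 295, 328 and 290 CPM in WT (-0.56 ± 0.09, SE, edgeR adjusted p = 0.000821). In both genes every labelled mutant library was below every WT library. Aldolases feed both enzymes, and the 2 plastid aldolases among the 33 genes differed. FBA2 (AT4G38970) averaged 490 ± 35.2 CPM in the labelled mutant and 717 ± 40.6 CPM in WT (SD, n = 3 each), and fell by 0.55 on the log2 scale. FBA1 (AT2G21330) stood at 238, 183 and 230 CPM in the labelled mutant and at 216, 258 and 213 CPM in WT. Its groups overlapped (-0.08 ± 0.12, SE, edgeR adjusted p = 0.613), and its sign turned without WT replicate 2 (0.02) and without labelled mutant replicate 2 (0.03). Plastid triose-phosphate isomerase (pdTPI, AT2G21170) fell by 0.32 on the log2 scale (edgeR adjusted p = 0.00716), the smallest fall of a regeneration gene that passed.

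Of the 3 CP12 genes, 1 fell and 2 did not pass. CP12-2 (AT3G62410), a dark-time linker of PRK and glyceraldehyde-3-phosphate dehydrogenase, had 69.4, 55.2 and 49.7 CPM in the labelled mutant and 170, 151 and 165 CPM in WT. It fell to 35.9% of the WT level (-1.48 ± 0.12, SE, edgeR adjusted p = 2.02e-05), and among the 33 genes only RBCS1B, RBCS2B and RBCS3B had lower log2 fold changes. CP12-1 (AT2G47400) had 53.8, 71.3 and 78.2 CPM in the labelled mutant and 88.7, 63.4 and 115 CPM in WT. The groups overlapped through WT replicate 2 (-0.40 ± 0.21, SE, edgeR adjusted p = 0.142). CP12-3 (AT1G76560) had the lowest counts of the 33 genes. It stood at 0.60, 0.63 and 0.48 CPM in the labelled mutant and 1.198, 0.482 and 1.348 CPM in WT (-0.81 ± 0.35, SE, edgeR adjusted p = 0.0834). WT replicate 2 decided both calls. Without it CP12-1 passed as lower (-0.59, edgeR adjusted p = 0.0231) and so did CP12-3 (-1.16, edgeR adjusted p = 0.0028). Without WT replicate 3 the values were nearer 0, at -0.17 for CP12-1 (edgeR adjusted p = 0.489) and -0.51 for CP12-3 (edgeR adjusted p = 0.302).

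Of the 12 photorespiratory genes, 11 fell, with a median log2 fold change of -0.63, against -0.81 for the 21 Calvin cycle genes, of which 18 fell. The difference between the 2 pathways was not tested. The plastid steps open and close the route. Phosphoglycolate phosphatase PGLP1 (AT5G36700), the entry enzyme, had 115, 93.4 and 98.9 CPM in the labelled mutant and 163, 166 and 156 CPM in WT (-0.66 ± 0.09, SE, edgeR adjusted p = 0.000259). Of its 50-base exon stretches, 90.8% also occur in the near-identical copy AT5G36790, so its value cannot be assigned to 1 of the 2 genes. Glycerate kinase (GLYK, AT1G80380) returns the recovered carbon to the cycle. It had 38.7, 34.6 and 34.8 CPM in the labelled mutant and 84.0, 87.6 and 84.0 CPM in WT, 42.3% of the WT level (-1.24 ± 0.07, SE, edgeR adjusted p = 2.21e-06).

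All 5 peroxisomal genes fell, with a median log2 fold change of -0.39. The glycolate oxidases GOX1 and GOX2 are neighbours on chromosome 3. GOX2 (AT3G14415) had 216, 180 and 182 CPM in the labelled mutant and 312, 328 and 334 CPM in WT (-0.75 ± 0.09, SE, edgeR adjusted p = 0.000131). GOX1 (AT3G14420) had 359, 288 and 314 CPM in the labelled mutant and 367, 400 and 401 CPM in WT, and labelled mutant replicate 1 came close to WT replicate 1. Its fall (-0.28 ± 0.09, SE, edgeR adjusted p = 0.0298) did not pass without WT replicate 2 (0.0720), WT replicate 3 (0.0831), labelled mutant replicate 2 (0.107) or labelled mutant replicate 3 (0.0986), all edgeR adjusted p.

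Serine:glyoxylate aminotransferase AGT1 (AT2G13360) averaged 284 ± 39.6 CPM in the labelled mutant and 457 ± 1.71 CPM in WT (SD, n = 3 each), and fell by 0.69 on the log2 scale. Glutamate:glyoxylate aminotransferase GGT1 (AT1G23310) averaged 365 ± 39.5 CPM in the labelled mutant and 458 ± 11.1 CPM in WT (SD, n = 3 each), a fall of 0.33 on the log2 scale (edgeR adjusted p = 0.0121). That call was lost without labelled mutant replicate 2 (0.0516) and without labelled mutant replicate 3 (0.0576). Hydroxypyruvate reductase HPR1 (AT1G68010), the last peroxisomal step, had 205, 165 and 179 CPM in the labelled mutant and 238, 243 and 241 CPM in WT. The WT libraries were tightly grouped and all above the labelled mutant libraries (-0.39 ± 0.09, SE, edgeR adjusted p = 0.00451).

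In mitochondria the glycine decarboxylase complex and serine hydroxymethyltransferase turn glycine into serine. Of their 5 genes 4 fell, and the complex's subunits did not move by the same amount. The T protein gene GLDT (AT1G11860) fell furthest, with 237, 220 and 237 CPM in the labelled mutant and 427, 421 and 445 CPM in WT (-0.90 ± 0.07, SE, edgeR adjusted p = 1.32e-05). SHM1 (AT4G37930), the hydroxymethyltransferase, averaged 503 ± 70.2 CPM in the labelled mutant and 817 ± 30.6 CPM in WT (SD, n = 3 each), and fell by 0.70 on the log2 scale. The H protein gene GLDH1 (AT2G35370) fell by 0.61, and the minor P protein gene GLDP2 (AT2G26080) fell by 0.43.

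GLDP1 (AT4G33010), the main gene for the decarboxylating P protein, stood at 760, 524 and 566 CPM in the labelled mutant and at 615, 717 and 663 CPM in WT. Labelled mutant replicate 1 was the highest of all 6 libraries, and the other labelled mutant libraries were the lowest. GLDP1 did not pass (-0.11 ± 0.14, SE, edgeR adjusted p = 0.531). Without that library it passed as lower (-0.30, edgeR adjusted p = 0.0273), and without labelled mutant replicate 2 its value was -0.01 (edgeR adjusted p = 0.960). The library stood high more widely: labelled mutant replicate 1 was the highest of its group in 27 of the 33 genes and replicate 2 the lowest in 29. Over all tested genes the same libraries held those places in 36.3% and 34.1% of genes. In WT, replicate 2 was the highest in 25 of the 33, and in 33.8% of all tested genes. The median log2 fold change of the 33 genes was -0.82 without labelled mutant replicate 1 and -0.65 without replicate 2.

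Ratios of 2 genes within a library do not depend on library scaling. The log2 ratio of GAPA-1 to GAPA-2 was 0.51 higher in the labelled mutant than in WT, that of FBA1 to FBA2 was 0.47 higher, and that of GOX1 to GOX2 was also 0.47 higher. The ratio of GLDP1 to GLDP2 was 0.30 higher, and 0.18 higher without labelled mutant replicate 1. In each of these the less reduced isoform gained share, and no labelled mutant library overlapped a WT library. CP12-2 was more abundant than CP12-1 per kilobase in WT, with a ratio of 2.68, against 1.23 in the labelled mutant, a log2 difference of -1.12. Its values were widely spread, at 0.89, 0.15 and -0.13 in the labelled mutant and 1.46, 1.77 and 1.03 in WT. CP12-3 to CP12-1 overlapped between groups (-0.33, exact permutation p = 0.4, two-sided), with -0.10 to -0.57 as libraries were left out. All the other ratios gave the smallest p the design allows, 0.1 in the exact permutation test (two-sided), and 0.107 after adjustment over the 15 pairs, so none passed 0.05.

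Many cycle enzymes have a relative outside the cycle, and 7 further pairs were added after the data had been seen. Relative to a glycolytic or other isoform, the plastid enzyme was lower in the labelled mutant in 6 of the 7. The ratio of GAPA-1 to cytosolic GAPC1 averaged 0.848 in the labelled mutant and 2.52 in WT, so GAPC1 exceeded GAPA-1 in the labelled mutant only. The ratio of GAPB to cytosolic GAPC2 showed the same crossing, at 0.880 in the labelled mutant and 1.53 in WT. PGK1 to cytosolic PGK3 averaged 2.97 in the labelled mutant and 6.13 in WT. RPE to a cytosolic epimerase (AT1G63290) averaged 7.05 in the labelled mutant and 16.6 in WT. Another cytosolic epimerase gene, AT3G01850, was not paired, and its own level did not pass (log2 fold change 0.11, edgeR adjusted p = 0.192). TKL1 to TKL2 averaged 29.7 in the labelled mutant and 74.4 in WT. Plastid to cytosolic triose-phosphate isomerase averaged 0.470 in the labelled mutant and 0.725 in WT. The bisphosphatase pair was the exception. FBPase to its cytosolic counterpart, an enzyme of sucrose synthesis, averaged 3.17 in the labelled mutant and 2.92 in WT, a log2 difference of 0.12 that shrank to 0.05 without WT replicate 3.

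**Figure D3:**
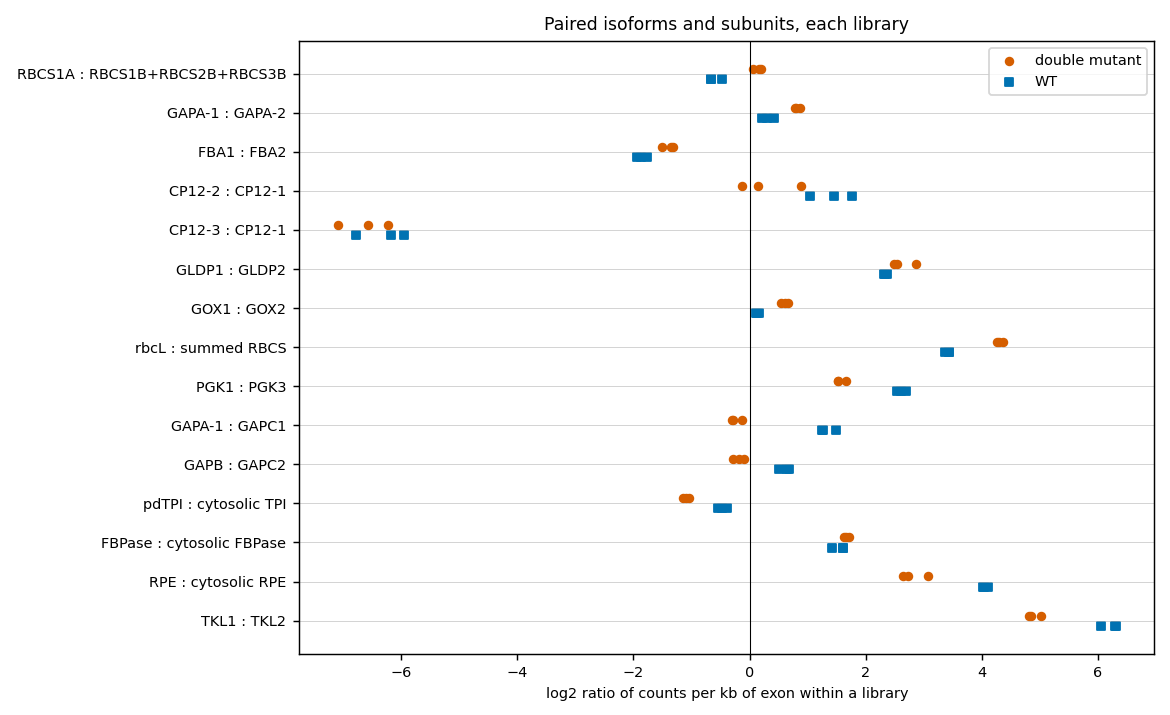
Log2 ratio of counts per kilobase of exon for 15 gene pairs in each library, with the labelled double mutant as circles and WT as squares. The 2 groups overlap only for CP12-3 to CP12-1. Rows from PGK1 to PGK3 downward were added after the data had been seen.

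By level per kilobase, the order of the genes in WT was led by RBCS1A at 3732 ± 496 CPM per kilobase, RBCS3B at 2907 ± 173, RBCS2B at 1646 ± 89.1 and RBCS1B at 1075 ± 49.9 (SD, n = 3). RCA followed at 578 ± 42.9. In the labelled mutant RBCS1A led at 1627 ± 92.5 CPM per kilobase, RBCS3B had 709 ± 67.0 and RBCS2B had 474 ± 28.0. RCA stood there at 329 ± 31.7, above RBCS1B at 292 ± 20.03, though these levels differed by little more than their SDs. At the low end stood GLYK, with 13.3 CPM per kilobase in the labelled mutant and 31.4 in WT, and CP12-3, with 0.739 in the labelled mutant and 1.31 in WT. Across the 33 genes the Spearman correlation between the WT level and the log2 fold change was -0.40, and without the RBCS genes it was -0.14 over 29 genes. Both are descriptions across genes of the same libraries, and the WT level enters both quantities.

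Light-regulated plant promoters are known for G-box and I-box elements, and RBCS promoters are the classic example. The 500 bases before the start codon were searched on both strands for CACGTG (G-box) and GATAAG (I-box). Annotated gene starts often lie far upstream of the start codon, so these windows can include 5′ untranslated sequence. The G-box occurred in 10 of the 33 genes (30.3%), against 9.2% of 27444 genes searched alike. The I-box occurred in 16 (48.5%), against 23.5%. Both lay within 30 bases of each other in 4 of the 33 (12.1%), against 0.36% of all genes. Those 4 windows are shown from the RefSeq TAIR10.1 genome, 5′ to 3′ on the gene's strand, with the motifs in capitals. They lie at chr1:25049503-25049532, chr5:15382173-15382202 and chr5:15378502-15378531, all on the minus strand, and at chr3:20016812-20016841 on the plus strand.
RBCS1A: GATAAGattcatggaattatcttcCACGTG
RBCS2B: ttttctgcCACGTGatCTTATCctagtggt
RBCS3B: ttttctgcCACGTGgcCTTATCctagtggt
FBPase: agcCACGTGtcataacacaaGATAAGtgga

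In RBCS2B and RBCS3B the I-box is read on the opposite strand. The RBCS1A and RBCS3B windows lie inside the longest annotated 5′ untranslated region, the RBCS2B window lies upstream of the annotated gene, and the FBPase window spans the annotated start. RBCS1B has I-boxes but no G-box in its 500 bases, and its log2 fold change (-1.88) lay between those of RBCS2B and RBCS3B. The 10 genes with a G-box had a median log2 fold change of -0.78, with a range of -2.04 to -0.08, against -0.70 for the 23 without. The 16 with an I-box had a median of -0.81, against -0.61 for the 17 without. In the 250 bases before the annotated gene start the shares were closer to those of all genes, at 15.2% against 6.5% for the G-box and 18.2% against 12.3% for the I-box. These are matches of letters, and no test was made of them.

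Genes that assemble and repair Rubisco were mostly lower. Of 11, 10 were lower and none was higher, against 26.0% lower and 26.3% higher over all tested genes. The median of the 11 was -0.78 on the log2 scale. BSD2, a chaperone of the large subunit, averaged 36.5 ± 2.27 CPM in the labelled mutant and 79.3 ± 5.31 CPM in WT (SD, n = 3 each; log2 fold change -1.12). CBBY, which degrades an inhibitory sugar phosphate, fell by 1.16 on the log2 scale, though AT3G48425 overlaps its exons on the same strand. The chaperonin subunit gene CPN60B2 fell by 1.00 and the assembly factor gene RAF2 fell by 0.82. Of 9 genes for thioredoxins and their reductases, which switch the cycle's enzymes on in light, 8 were lower and TRXF1 did not pass, with a median of -0.63. NTRC, which combines a thioredoxin with its reductase, averaged 38.5 ± 1.34 CPM in the labelled mutant and 72.04 ± 5.09 CPM in WT (SD, n = 3 each; -0.91). FTRA2, a subunit gene of ferredoxin-thioredoxin reductase, fell by 0.87, and the thioredoxin genes TRXF2 and TRXM1 fell by 0.68 and by 0.65.

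The wider photorespiratory list of 26 transport, nitrogen and further isoform genes was mixed. It had 11 lower, 6 higher and 9 that did not pass, with a median log2 fold change of -0.15. Among the lower genes was AT5G36790, the near-identical copy of PGLP1. Of its 50-base exon stretches, 98.9% also occur in PGLP1, so its fall is not separate from that of PGLP1. The plastid glycolate and glycerate carrier PLGG1 averaged 68.9 ± 7.84 CPM in the labelled mutant and 158 ± 7.23 CPM in WT (SD, n = 3 each), with a log2 fold change of -1.20. GLN2 and GLU1, which reassimilate the released ammonia, fell by 1.08 and by 0.90, and the H protein gene GLDH3 fell by 0.78, though AT1G06573 overlaps its exons on the same strand. Among those that rose were the 2-hydroxy acid oxidase gene HAOX1, with 8.54 ± 0.275 CPM in the labelled mutant and 4.95 ± 0.180 CPM in WT (SD, n = 3 each; 0.79). The glycolate transporter BASS6 rose by 0.68, peroxisomal malate dehydrogenase PMDH1 by 0.34, and mitochondrial lipoamide dehydrogenase mtLPD2, the L protein of glycine decarboxylase, by 0.31. Their more abundant isoforms passed as lower: PMDH2 (247 ± 28.5 CPM in the labelled mutant and 301 ± 9.86 CPM in WT, SD, n = 3 each) fell by 0.29 on the log2 scale, and mtLPD1 (79.3 ± 5.19 CPM in the labelled mutant and 93.0 ± 3.72 CPM in WT) fell by 0.23.

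The other isoforms of cycle enzymes went more often up than down. Of 15, 8 were higher, 3 were lower and 4 did not pass, with a median log2 fold change of 0.27. Over all tested genes 26.3% passed as higher and 26.0% as lower. Cytosolic GAPC1 of glycolysis averaged 487 ± 24.7 CPM in the labelled mutant and 269 ± 30.9 CPM in WT (SD, n = 3 each), a rise of 0.86 on the log2 scale. The plastid glycolytic enzyme GAPCP1 rose by 0.78, TKL2 by 0.51, FBA3 by 0.36 and PGK3 by 0.36. Cytosolic triose-phosphate isomerase rose by 0.31 and the cytosolic epimerase AT1G63290 by 0.27, while the cytosolic epimerase AT3G01850 did not pass. GAPC2 passed narrowly (0.25, edgeR adjusted p = 0.0498). Cytosolic fructose-1,6-bisphosphatase fell by 0.87 on the log2 scale, the second plastid fructose bisphosphatase cfFBP2 fell by 0.67, and PGK2 fell by 0.36. AT2G01130 overlaps exons of FBA3 on the same strand, so some FBA3 reads are uncertain.

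Nuclear genes of the light reactions were lower in 29 of 41, against 26.0% of all tested genes. They were higher in 3, against 26.3% of all tested genes, and 9 did not pass. The counts differed between 2 parts of that list, a difference that was not tested. All 23 genes for photosystem cores, electron transport and ATP synthase were lower, and their median was -0.69 on the log2 scale. Plastocyanin DRT112 averaged 473 ± 35.9 CPM in the labelled mutant and 1175 ± 56.7 CPM in WT (SD, n = 3 each; -1.31). The oxygen-evolving subunit gene PSBQA fell by 1.34, the Rieske protein gene PETC fell by 1.13 and the ATP synthase subunit gene ATPD fell by 0.98. Of 18 light-harvesting antenna genes, 6 were lower, 3 were higher and 9 did not pass, with a median of -0.12. LHCB4.2 averaged 329 ± 22.5 CPM in the labelled mutant and 207 ± 25.9 CPM in WT (SD, n = 3 each), a rise of 0.67, while LHCB1.5 rose by 0.67 and LHCB2.2 by 0.58. LHCB1.5 and LHCB2.2 share 17.3% and 29.5% of their 50-base exon stretches with a paralogue, so their values are uncertain.

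**Figure D4:**
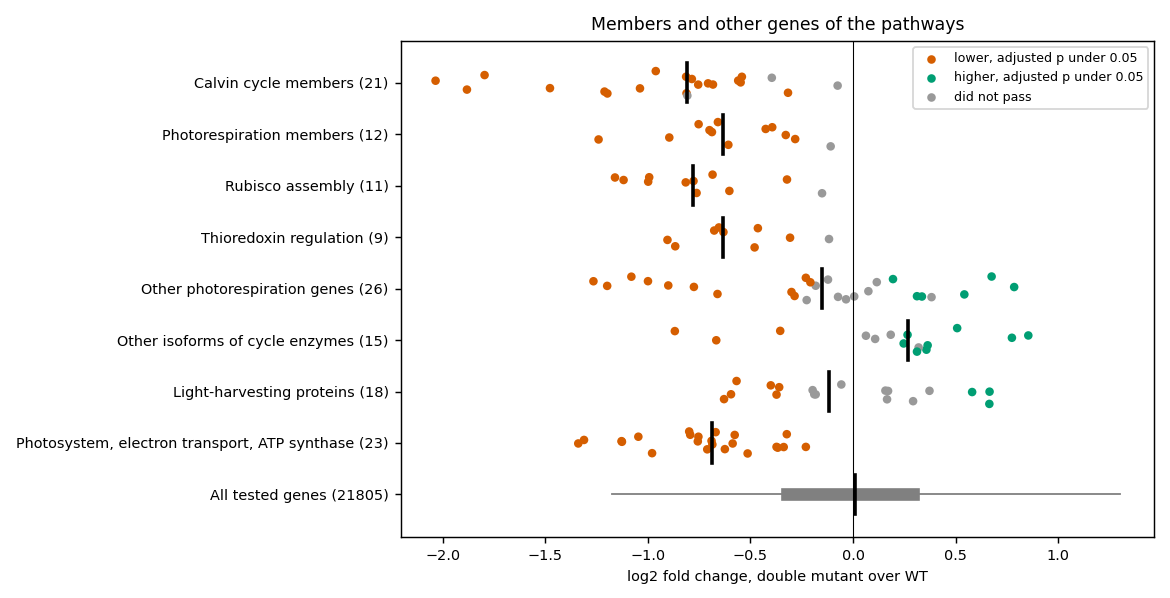
Log2 fold change of the labelled double mutant over WT for the Calvin cycle and photorespiration members and for 6 other gene groups, 1 point per gene, with a black bar at each median and the number of genes in brackets. The bottom row gives the median of all 21805 tested genes, a thick bar from percentile 25 to 75 and a thin line from percentile 5 to 95. The members, Rubisco assembly, thioredoxin and photosystem rows lie left of 0, while the other isoforms lie mostly to the right and the antenna genes spread around it.

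Markers of the tissues in a seedling are set beside the 26.0% of all tested genes that passed as lower and the 26.3% as higher. Of 5 mesophyll markers, 2 were lower and none was higher, and their summed level was 4765 to 5647 CPM in the labelled mutant and 6096 to 7415 CPM in WT. The lower ones were carbonic anhydrase CA1 (log2 fold change -1.59) and LHCA3 (-0.57), while LHCB1.3 (-0.20), LHCB3 (-0.06) and LHCB2.4 (0.16) did not pass. LHCB1.3 gave most of the mesophyll sum, with a mean of 3491 CPM in the labelled mutant and 4000 CPM in WT. All but CA1 are also in the list of light-reaction genes. Of 16 root markers, 9 were lower and 5 higher, and their sum was 536 to 587 CPM in the labelled mutant and 851 to 1258 CPM in WT. PYK10 gave most of that sum, with a mean of 519 CPM in the labelled mutant and 953 CPM in WT. The other lower root markers were SCR, CASP1 to CASP5, WER and COBL9. The higher ones were SHR, MYB36, RHD6, PLT1 and PLT2, so the sum does not describe all root markers. Of 4 guard cell markers, 3 were lower, with a sum of 19.7 to 24.3 CPM in the labelled mutant and 27.4 to 28.7 CPM in WT. Phloem markers summed to 85.9 to 96.9 CPM in the labelled mutant and 86.2 to 101 CPM in WT, with 1 lower and 1 higher of 3, and of 2 epidermis markers 1 was lower. Seed and flower markers were low, at most 2.99 and 0.642 CPM in sum in the labelled mutant and 5.70 and 2.56 CPM in WT. The flower sums did not overlap, at 0.355 to 0.642 CPM in the labelled mutant and 2.395 to 2.56 CPM in WT. SEP1 averaged 0.030 CPM in the labelled mutant and 0.540 CPM in WT, and was lower (log2 fold change -4.1). SEP3 averaged 0.139 CPM in the labelled mutant and 1.415 CPM in WT, and was also lower (-3.315), while PI did not pass. No seed gene was called. The seed genes CRB, CRC and OLE1 and the flower genes AP1, AP3, AG, LFY and SEP2 did not pass the filter on low counts. Whether a change in the share of these tissues had a part in the lower level of the 33 genes was not tested.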

How the data were processed

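Per the labels' protocols, total RNA was depleted of ribosomal RNA and made into stranded single-end libraries with a TruSeq kit. STAR, featureCounts and the build TAIR10 come from the submitters' processing notes. No version of STAR or of the annotation is given in the sources used here. Each library has its own deposited table, which holds unnormalized read counts by gene. Per the file headers they were made with featureCounts 2.0.0, on the reverse strand, with multi-mapping reads counted in full for each gene. Genes with near-identical copies therefore share reads.

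From the counts, edgeR 4.0.16 (R 4.3.3) with TMM scaling, filterByExpr at a minimum count of 10 and a group term only gave a quasi-likelihood test for 21805 genes. P-values were adjusted by Benjamini-Hochberg over all of them, with a threshold of 0.05. SEs are the log2 fold change divided by the root of F. CPM values use TMM library sizes over all 3 genomes. Within-library ratios use (counts + 0.5) per kilobase of exon and exact permutation tests (scipy 1.17.1). The fit was tested on simulated data in which only a small part of the genes differed. In the data 52.4% of tested genes were called, a setting which that simulation did not cover. Libraries held 53193772 to 78671470 counts. Replicate libraries differed by more than counting noise, with a chi-square per degree of freedom of 11.27 or more within groups, so none was merged. The closest pair was labelled mutant replicates 2 and 3 (11.27). Separate preparations of 1 sample can also exceed that noise, so this does not show separate biological samples.

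Alternatives were relative log expression (RLE) scaling in edgeR in place of TMM, the DESeq2 1.42.0 Wald test and limma-voom (limma 3.58.1). Further ones were nuclear genes only, no filter, the replicate number as a block, and each library left out. The member genes, the lists and the rule for naming were chosen with earlier results of these data known. By that rule, values in every library are given for the RBCS genes, RCA, PRK, SBPase, FBPase, GAPB, CP12 genes, GLDP1, HPR1 and the extremes of each role group. Members that did not pass and up to 4 genes per list and direction by adjusted p are also named. Outside that rule, TRXF1, mtLPD1, PMDH2 and the partner genes of the pairs added later (PGK3, GAPC2, cytosolic triose-phosphate isomerase and the epimerase AT1G63290) were chosen after their values were seen. The epimerase gene AT3G01850 and the PGLP1 copy AT5G36790 were also named after their values were seen. The single values of 1 listed gene are not reported here. Motifs were searched before start codons, and not before annotated gene starts alone, a choice made after the annotation was read. Coding sequences were aligned with MAFFT 7.526. Of 32548 nuclear genes, 32536 were found in the RefSeq TAIR10.1 annotation, 99.9% of them with the same start and end.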

Additional observations from a re-analysis of the deposited data

How the results depend on the processing

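Among the 33 genes, the number lower ranged from 27 to 30 as each library was left out in turn, and none was higher in any alternative. RLE scaling, nuclear genes only, the DESeq2 Wald test, limma-voom, no filter and the replicate block changed no call among the 33. FBA1, which did not pass in any alternative, ranged from -0.157 to 0.027 as libraries were left out, with 0.019 without WT replicate 2. GOX1, GGT1, CP12-1, CP12-3 and GLDP1 changed their call only where a library was left out, with values given above. Outside the 33, GAPC2 lost its call in 8 alternatives, among them nuclear genes only (0.24, edgeR adjusted p = 0.0602) and the replicate block (0.25, edgeR adjusted p = 0.0602), and LHCB2.2 lost it without labelled mutant replicate 3 (0.47, edgeR adjusted p = 0.0514). With the replicate number as a block, 29 of the 33 genes were again lower and 11373 of all genes were called, against 11421 without it. Same-numbered libraries had deviations from their group means that correlated at 0.192, 0.072 and -0.002, and labelled mutant replicate 2 correlated best with WT replicate 3, so the numbers were not taken as pairs. The ratios of paired genes kept their sign in every alternative tried. Over all tested genes 49.7% of calls were lower, and between 49.6% and 52.3% in the alternatives, so which direction had more calls was not stable. Over the settings, the centre of all tested genes on the log2 scale stayed between -0.001 and 0.015. The exact permutation test cannot reach 0.05 with 3 libraries a group, so it says nothing on stability. CP12-3, at about 1 CPM, is the member with the fewest counts, where counting error weighs most.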
